A study of Triticum aestivum with 20 samples.

Results

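Repressed islands are short stretches of leaf chromatin that carry the repressive mark H3K27me3 alone and touch activated chromatin on both sides. They were chosen by the deposited chromatin state calls of leaf themselves: the 9 states, E1 to E9, were merged into 4 classes (activated: E1, E2, E6 and E7; repressed: E5; mixed: E3, E4 and E8; unmodified: E9), adjoining segments of a class were joined into runs, and repressed runs under 2000 bp with an activated run directly on each side were kept. This gave 136 islands of 160414 repressed runs in leaf (0.0848%), or 0.168% of the 80869 repressed runs under 2000 bp. Together they covered 66.8 kb of the 597 Mb that was repressed in leaf. Their leaf states, their lengths and the class of their neighbours follow from how they were chosen and are described with no test. Their states in vernalized leaf and their spread over the sub-genomes were not used in choosing them.

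The study applied ChIP-seq for 4 histone marks (H3K27me3, H3K4me3, H3K36me3 and H3K27ac) to leaf of hexaploid bread wheat, cultivar AK58, in 2 conditions, with 2 libraries per mark and 2 input libraries in each condition. Vernalized leaf came from plants that were raised in a greenhouse, held for about a month in a cold chamber and returned to the greenhouse for a day, and leaf came from seedlings that had no cold treatment. The cold, the greater age and the return to warmth cannot be told apart. The measurement used here is 1 segmentation per condition, made by the authors with the software ChromHMM from peaks of the 4 marks and of chromatin accessibility (ATAC-seq), in bins of 200 bp on the IWGSC RefSeq v1.0 genome. It covered the 21 chromosomes, 14066 Mb in all, in 1833172 segments for vernalized leaf and 1603362 segments for leaf. Each state is a label with no signal and no read depth behind it, and replicate libraries are not kept apart in it, so no difference between the conditions can be set against the spread between plants.

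H3K27me3 is laid down by Polycomb repressive complex 2 and marks genes that are held silent, while H3K4me3 and H3K27ac mark active promoters and enhancers and H3K36me3 marks the bodies of transcribed genes. H3K36me3 hinders Polycomb repressive complex 2 on the same histone tail, and H3K27ac and H3K27me3 occupy the same lysine and exclude each other there. Chromatin that holds both kinds of mark in a bulk sample can be bivalent or can come from a mixture of cells. In cereals and in Arabidopsis, vernalization is known for the loss or gain of H3K27me3 at flowering genes, a change that outlasts the cold. According to the study's picture of the state model, E5 is H3K27me3 alone, E2 is chiefly H3K36me3, E1 is accessible with all active marks, E6 is accessible with some H3K27ac, E7 is accessible only, E9 has none of the marks, and the mixed states pair H3K27me3 with accessibility or active marks. This order of states could not be checked against the segmentations, and the same state number need not have the same definition in the 2 conditions.

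The islands were short. Of the 136, 55 were 1 bin of 200 bp long, 39 were 400 bp and 15 were 600 bp, and the counts were 6 at 800 bp, 9 at 1000 bp, 4 at 1200 bp, 2 at 1400 bp, 5 at 1600 bp and 1 at 1800 bp. The median was 400 bp and the mean 491 bp, and 94 islands (69.1%) were under 600 bp. Other repressed runs under 2000 bp were longer, with a median of 800 bp whether they had unmodified chromatin on both sides, activated chromatin on 1 side, or mixed chromatin on any side. At the limit of the length rule, the only island of 1800 bp, on 7A, held 200 bp repressed, 1000 bp unmodified and 600 bp mixed in vernalized leaf. Of the 5 runs of exactly 2000 bp between activated runs, which were left out, 1 on 2B was all unmodified in vernalized leaf, 1 on 5A kept 600 bp repressed, another on 5A held 800 bp activated, 1 on 6A held 1800 bp activated and 1 on 7A kept 1000 bp repressed.

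**Figure D1:**
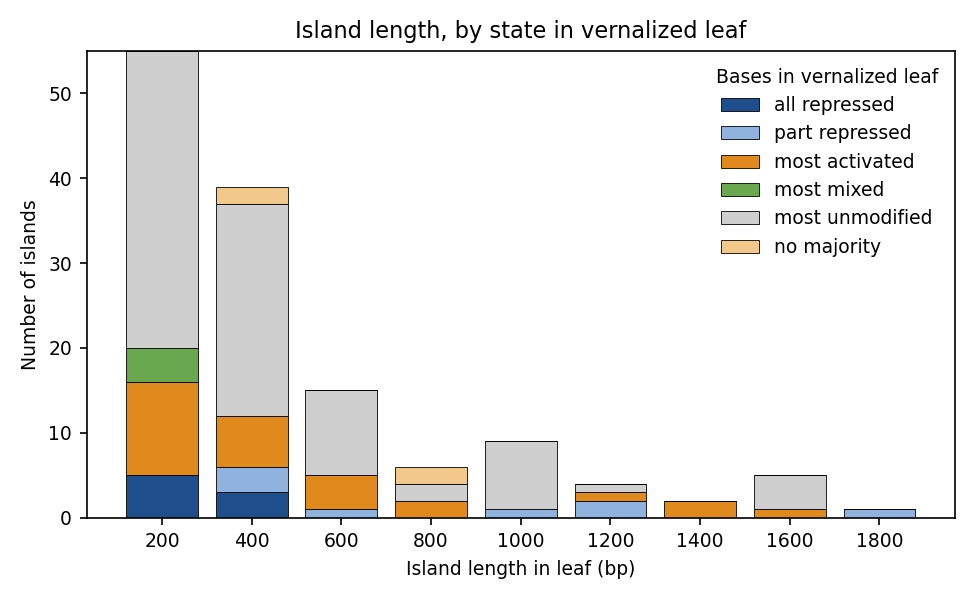
Number of islands in leaf (y axis) at each length in bp (x axis), with each bar divided by what the island's bases were in vernalized leaf. The 55 islands of 200 bp and the 39 of 400 bp make up most of the 136, and the 8 islands that stayed wholly repressed are all among them.

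The activated chromatin around the islands was short as well. The 272 flanking runs (a run shared by a pair of islands was counted for each) had a median length of 400 bp and ranged from 200 to 15800 bp, and 134 of them (49.3%) were a single bin of 200 bp, against 32.8% of all 245326 activated runs of leaf, whose median was 600 bp. Both flanks reached 600 bp at 14 islands (10.3%) and 1000 bp at 3, and 11 islands were longer than their 2 flanks together. An island with both flanks spanned 1200 bp in the median. In the 5000 bp beyond each flank, 67.3% of bases were unmodified, 17.9% repressed, 10% activated and 4.75% mixed, against 92.6%, 4.24%, 2.69% and 0.482% of the genome. The next class beyond the flanks was unmodified on both sides at 59 islands, repressed on at least 1 side at 52, and mixed without repressed at 25. The nearest other repressed run lay within 2000 bp at 82 islands (60.3%), with a median gap of 1200 bp. The islands thus sat between short activated runs, often near other repressed runs, and few of them lay inside a long activated domain. The surroundings of other short repressed runs are not given here, so nearness to repressed runs may not be particular to the islands.

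The flanks were mostly H3K36me3 chromatin. State E2 held 70.0% of the flank bases, E7 13.5%, E6 9.40% and E1 7.15%, where all activated bases of leaf were 73.4% E2, 12.7% E7, 3.36% E6 and 10.6% E1. The share of the accessible state E6 was thus higher in the flanks, and that of E1 lower, which was not tested. A single island, 1A:38853001-38854200, gave 7200 of the 18400 bp of E6, and without it the E6 share was 5.98%. The segments in direct contact with the island were E2 on both sides at 77 islands (56.6%). At 32 islands E7 lay on the side of lower coordinates and E2 on the other, and at 12 islands the order was reversed. Another 9 islands had E7 on both sides, 3 had E2 then E1 and 3 had E1 then E2. Grouped by kind, 83 islands had a marked state (E1 or E2) on both sides, 44 had 1 marked and 1 accessible side, and 9 had an accessible state (E6 or E7) on both sides.

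In vernalized leaf, most island bases were called unmodified (E9). Of the island bases, 65.9% were unmodified (95% exact binomial interval over bins 60.5 to 70.9%), 24.3% were activated (19.8 to 29.2%), 7.19% were still repressed (4.66 to 10.5%) and 2.69% were mixed (1.24 to 5.05%). These intervals cover counting error only, and neighbouring bins are not independent. Loss to unmodified chromatin was common to short repressed runs and not particular to the islands. The unmodified share was 76.5% for repressed runs under 2000 bp with unmodified chromatin on both sides. It was 75.9% for those with activated chromatin on 1 side and unmodified on the other, and 48.8% for those beside mixed chromatin. By state, 44000 bp were E9, 12600 bp E2, 4800 bp E5, 2000 bp E7, 1600 bp E6, 1600 bp E8 and 200 bp E4, and no island base was E1 or E3. The activated part was thus chiefly E2, the H3K36me3 state that also made up most of the flanks.

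Counted by island, 8 were wholly repressed in vernalized leaf, 8 were partly repressed, 27 had no repressed base and were activated over more than 50% of their length, 4 were mostly mixed and 85 mostly unmodified by the same measure, and 4 were activated and unmodified in equal parts. Any repressed base was thus kept by 16 islands (11.8%, interval 6.88 to 18.4%), against 47.3% of all repressed runs under 2000 bp and 67% of all repressed runs of leaf. Among the short runs, the share was 56.2% beside mixed chromatin and 24.8% between unmodified chromatin. It was 17.1%, inside the interval of the islands, for runs with activated chromatin on 1 side and unmodified on the other. All 3 of these kinds had a longer median length than the islands. The 27 mostly activated islands were 19.9% of all islands (13.5 to 27.6%), against 2.32% of the repressed runs under 2000 bp and 1.25% of all repressed runs. Within the 27, 25 were wholly activated, and 77 islands were wholly unmodified. The mostly activated islands were spread over 16 of the 21 chromosomes and the mostly unmodified ones over all 21.

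**Figure D2:**
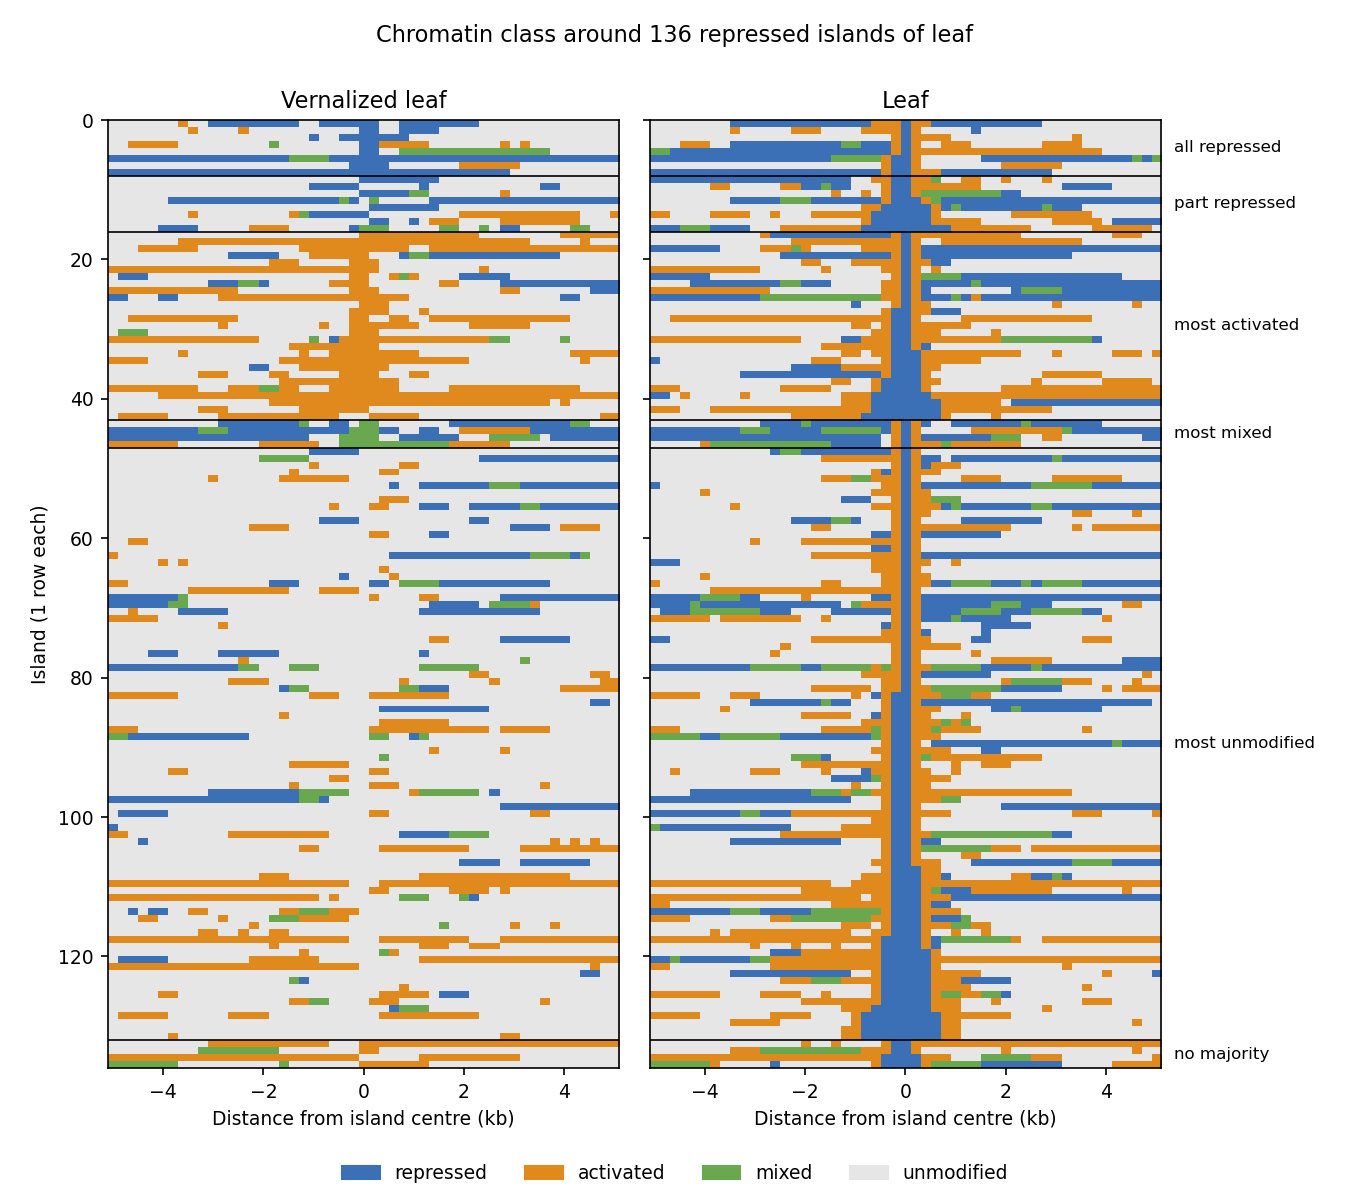
Chromatin class in bins of 200 bp within 5 kb of the centre of each of the 136 islands (1 row each, x axis in kb), in vernalized leaf on the left and in leaf on the right, with rows grouped by what the island became. The blue column at the centre of the leaf panel is the island that the choice of regions put there. In vernalized leaf the bin at the centre is repressed in 8.09% of rows, activated in 21.3%, mixed in 3.68% and unmodified in 66.9%.

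Taken over all lengths, the islands stayed repressed (E5) over a smaller share of their bases than short repressed runs between unmodified chromatin or beside mixed chromatin. Over all lengths they also became activated over a larger share than any other kind of short repressed run. Bases that became mixed also hold H3K27me3 by the study's picture, but are not counted as repressed here. To test this, the shares of bases were computed in each of the 7 homoeologous chromosome groups (a group holds the A, B and D copies of 1 ancestral chromosome) and compared by an exact permutation test that flips the sign of each group's difference (two-sided). Its smallest possible p is 0.0156, and p-values were adjusted over 9 comparisons by the Benjamini-Hochberg method. Chromosome groups are parts of the same segmentations, so the test measures how even a difference is along the genome and not how it varies between plants. In groups 1 to 7, the islands kept 13.0, 3.57, 4.17, 17.9, 4.55, 3.12 and 8.62% of their bases repressed. Short repressed runs with unmodified chromatin on both sides (20267 runs) kept between 18.3 and 21.4% in every group, so that the values of the islands and of these runs did not overlap. The means were 7.85 ± 5.67% for the islands and 19.8 ± 1.22% for these runs (SD, n = 7 groups), a difference of -12.0 percentage points (exact permutation p = 0.0156, adjusted p = 0.0281, lower in 7 of 7 groups).

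Beside mixed chromatin the difference was larger. Runs with mixed chromatin on at least 1 side (58534 runs) kept 45.0 ± 1.99%, and the islands were lower by 37.2 percentage points on average, in 7 of 7 groups (exact permutation, adjusted p = 0.0281). Runs with activated chromatin on 1 side and unmodified on the other (1932 runs) kept 12.9 ± 1.84%. The islands differed from those by -5.09 percentage points, lower in 6 of 7 groups, which did not pass the threshold (exact permutation p = 0.0781, adjusted p = 0.100). With only runs under 1000 bp, the difference from runs between unmodified chromatin was -6.94 percentage points and no longer passed (exact permutation, adjusted p = 0.0703), nor did it with E7 counted as unmodified, at -11.3 (adjusted p = 0.0563). With the comparison runs weighted to the lengths of the islands it was -8.68 (adjusted p = 0.0469). The difference was not seen at the commonest length. At 200 bp the islands kept 9.09% and runs between unmodified chromatin 8.76%, at 400 bp 11.5% and 16.4%, and at 600 bp 2.22% and 14.8%. Runs with activated chromatin on 1 side kept less than the islands at 200 bp (5.27%) and 400 bp (8.29%), and more at 600 bp (9.41%).

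On average the islands became activated over more of their bases than all 3 other kinds, least firmly against runs with activated chromatin on 1 side. In groups 1 to 7, 30.4, 25, 8.33, 28.6, 31.8, 28.1 and 19% of island bases were activated in vernalized leaf, and the lowest of these, in group 3, was still above every group's value for runs between unmodified chromatin, 1.88 to 2.90%. The means were 24.5 ± 8.27% for the islands and 2.50 ± 0.417% for those runs (SD, n = 7 groups), a difference of 22.0 percentage points (exact permutation p = 0.0156, adjusted p = 0.0281, higher in 7 of 7 groups). Against runs with mixed chromatin, at 2.69 ± 0.185%, the islands were higher by 21.8 percentage points (exact permutation, adjusted p = 0.0281, 7 of 7 groups). Runs with activated chromatin on 1 side became activated over 9.59 ± 0.823% of their bases, and the islands exceeded them by 14.9 percentage points (exact permutation p = 0.0312, adjusted p = 0.0469, 6 of 7 groups). In group 3 the islands were lower, at 8.33% against 10.9%. By length, the shares of the islands and of these runs were 20% and 15.1% at 200 bp, 17.9% and 12.1% at 400 bp, and 31.1% and 14.2% at 600 bp. The call against runs with activated chromatin on 1 side was lost among runs under 1000 bp, where the difference was 10.7 percentage points (exact permutation, adjusted p = 0.0703). It was also lost when E7 was counted as unmodified, at 13.3 percentage points (adjusted p = 0.0703).

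**Figure D3:**
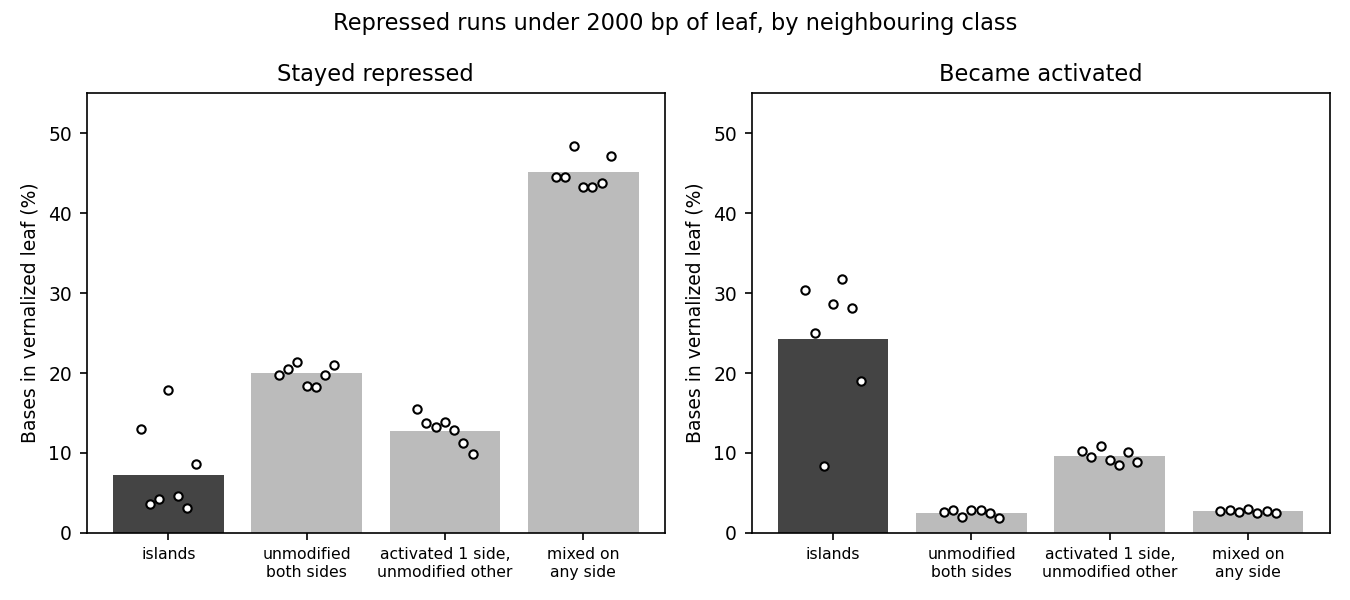
Share of bases (%) that stayed repressed (left) and that became activated (right) in vernalized leaf, for islands and for 3 other kinds of repressed run under 2000 bp in leaf, which differ in the class of their neighbours. Bars are pooled over the genome and the 7 circles are the chromosome groups. For islands the bars stand at 7.19% and 24.3%, below all 3 other kinds on the left and above all 3 on the right.

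The flanks of the islands kept their own class more often than the islands did, yet lost much of it too. Of the 196 kb of flanking runs, 47.0% was activated in vernalized leaf, 44.2% unmodified, 4.80% mixed and 3.98% repressed. By chromosome group, the islands stayed repressed over 7.85 ± 5.67% and the flanks stayed activated over 43.7 ± 18.4% of their bases (SD, n = 7 groups), a difference of -35.8 percentage points (exact permutation p = 0.0156, adjusted p = 0.0281, lower in 7 of 7 groups). The size of this difference depended on the length of the flanks. With only the bin of each flank that touches the island it was -17.5 percentage points, and with flanks under 2000 bp weighted to the lengths of the islands it was -16.2 (exact permutation, adjusted p = 0.0281 for each).

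Flanks of 1000 bp or more kept the largest share of the 4 length classes. Any activated base was kept by 86 of the 272 flanking runs (31.6%), against 53.1% of all activated runs of leaf. Flanks of 200 bp kept 17.9% of their bases activated, where all activated runs of that length kept 19.9%. At 400 bp the flanks kept 27% and all activated runs 25.2%. Flanks of 600 bp to under 1000 bp kept 23.2%, against 38.2%, and those of 1000 bp or more kept 62.1%, against 80.1%. Flanks of 200 and 400 bp thus kept about as much as other activated runs of their length. The longer flanks kept less than all activated runs of their class, a difference that was not tested. The class of 1000 bp or more has no upper limit, and lengths within it were not matched.

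No island became mostly activated unless at least 1 of its flanks held some activated base in vernalized leaf. At 22 islands both flanks held some activated base in vernalized leaf, and of these 16 had become mostly activated and 6 mostly unmodified. At 42 islands 1 flank did, and of these 11 became mostly activated, 24 mostly unmodified, 4 were activated and unmodified in equal parts and 3 were partly repressed. At the 72 islands where neither flank did, none became mostly activated, 55 became mostly unmodified, 8 stayed wholly repressed, 5 stayed partly repressed and 4 became mostly mixed. The 8 islands that stayed wholly repressed therefore all lay where both activated flanks had gone. Borders between E5 and any activated state were rare throughout vernalized leaf, at 0.176% of all borders of E5. An island that stayed repressed could thus seldom border activated chromatin there, and this count says little about the islands themselves. Each of the 25 islands that became wholly activated had at least 1 flank with an activated base. No island kept both a base of the repressed state E5 and activated bases in each of its flanks. At 1B:325488601-325489600, however, 200 bp of the island was E8, a mixed state, and 200 bp of each flank was activated. Over the whole stretch of island and flanks, 46 islands became entirely unmodified, 9 entirely activated, 3 entirely repressed and 3 entirely mixed, and the other 75 held more than 1 class. These are counts in a single pair of segmentations, in which neighbouring bins are called jointly, and how far that joint calling accounts for them was not tested.

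**Figure D4:**
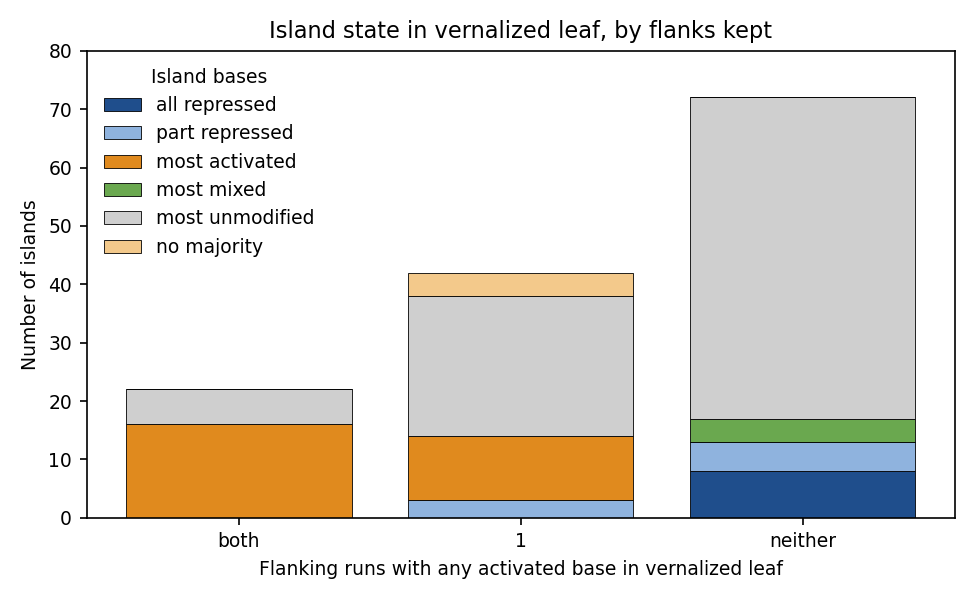
Number of islands (y axis) with both, 1 or neither of their flanking runs holding any activated base in vernalized leaf (x axis), with bars divided by the class of the island's own bases in vernalized leaf. Mostly activated islands number 16 of 22 with both flanks kept, 11 of 42 with 1 and 0 of 72 with neither.

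The 8 islands that stayed wholly repressed were 200 or 400 bp long and lay on 7 chromosomes. On 1B, at 1B:550501801-550502000, leaf had 600 bp of E2, the island of 200 bp and 400 bp of E2, with repressed runs beyond both flanks, and vernalized leaf had 1000 bp of E5 followed by 200 bp of E9. State E5 thus covered the island and most of the bases that had been its flanks. The same was seen over the whole stretch on 4A (4A:639994601-639995000), 4B (4B:237902601-237902800) and 7D (7D:625299801-625300200), where the island ended up in repressed runs of 6000, 1400 and 8000 bp. The 4B island was far from other repressed chromatin in leaf, with a gap of 45000 bp to the nearest run. The remaining 4, on 2D, 5D (a pair) and 6B, lay in repressed runs of 400 to 800 bp in vernalized leaf. On 6B, at 6B:62124601-62124800, a flank of 3800 bp held 3000 bp of mixed chromatin in vernalized leaf.

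The islands with the longest flanks show the other outcomes. At 5A:431920401-431921800, an island of 1400 bp had 3200 bp of activated chromatin on 1 side, nearly all E2 and ending in 200 bp of E1, and 2200 bp of E2 on the other. In vernalized leaf 800 bp of the island was activated and 600 bp unmodified, inside a stretch whose flanks kept 1200 bp of 5400 bp activated, so a run of E2 lay over part of the former island while most of its flanks had become E9. At 2A:14999201-15000200, an island of 1000 bp lay between 2200 and 5800 bp of activated chromatin made of E1, E2 and E7. In vernalized leaf all 1000 bp of it was E9, with 1400 and 4400 bp of the flanks still activated. At 7A:641951401-641953200, the island of 1800 bp had 1600 bp of activated chromatin on each side, with 800 bp of E6 in both, and in vernalized leaf it held 200 bp of E5, 600 bp of E8 and 1000 bp of E9. Among the 4 mostly mixed islands, at 1D:486908601-486908800 an island of 200 bp between 200 bp flanks of E2 became E8 together with 1 flank, and at the other 3 the island and both flanks became mixed.

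Islands that became wholly activated lay in activated runs of 400 to 13200 bp in vernalized leaf, with a median of 1800 bp, where the island with its flanks in leaf had spanned 600 to 9600 bp, with a median of 1400 bp. Picked after their values were seen, the longest of them were 1400 bp on 1B (1B:531692001-531693400), now within an activated run of 5600 bp, and 1200 bp on 1A (1A:38853001-38854200), now within one of 13200 bp. The longest flank of any island, 15800 bp on 2B (2B:184120001-184120600), stayed activated in nearly all its bases, and the island of 600 bp beside it became unmodified.

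How often islands stayed repressed or became activated varied with their length and flanks in small numbers. Islands of 200 bp were 9.09% repressed and 20% activated in vernalized leaf by bases, those of 400 bp were 11.5% and 17.9%, and the 42 of 600 bp or more were 4.98% and 27.9%. None of the islands of 600 bp or more stayed wholly repressed. The 14 islands with both flanks of 600 bp or more kept 1.56% of their bases repressed and had 35.9% activated. The repressed share is 200 bp of 1 island, at 7A:641951401-641953200, so it shows no trend with flank length. Islands with unmodified chromatin beyond both flanks were 6.49% repressed and 29.2% activated, and those with a repressed run beyond either flank were 8.51% and 21.3%.

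Islands between marked flanks and islands between accessible flanks could not be separated. In the 6 chromosome groups that had both, islands between E1 or E2 on both sides stayed repressed over 5.32 ± 3.05% of their bases and islands between E6 or E7 over 11.1 ± 27.2% (SD, exact permutation p = 1). They became activated over 23.4 ± 10.3% and 16.7 ± 40.8% (exact permutation p = 0.719, adjusted p = 0.809). The accessible kind rests on 9 islands, and the smallest p that 6 groups allow is 0.0312.

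The A sub-genome held 40 islands, the B sub-genome 57 and the D sub-genome 39. Counts per chromosome ran from 1 on 6A to 12 on 1B, or from 0.0671 to 0.966 islands per Mb of activated chromatin. Averaged over the 7 chromosomes of each sub-genome, the density per Mb of activated chromatin was 0.306 ± 0.168 in A, 0.487 ± 0.255 in B and 0.302 ± 0.0891 in D (SD, n = 7 chromosomes). The B chromosome was above its D partner in 6 of 7 groups, with a difference of 0.185 islands per Mb (exact permutation p = 0.0781, adjusted p = 0.938 over 12 sub-genome comparisons). None of the 12 comparisons of density or fate passed the threshold before or after adjustment. The islands stayed repressed over 8.14 ± 15.8% in A, 7.13 ± 6.73% in B and 7.91 ± 8.62% in D, and became activated over 24.1 ± 26.0%, 22.9 ± 13.4% and 27.2 ± 16.1% (SD, n = 7 chromosomes). With 1 to 12 islands on a chromosome, these spreads are wide enough that differences of many percentage points would not be detectable. The highest shares belonged to chromosomes with few islands, 42.9% repressed on 4A (4 islands) and 77.8% activated on 1A (3 islands). A pair of islands on 1B, at 1B:666807001-666807200 and 1B:666807401-666807600, shared a flanking run of 200 bp, and both became unmodified.

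Along the chromosomes the islands were most frequent towards the ends. With each chromosome divided into 20 blocks of equal length, the outer 3 blocks at each end held 84 islands (61.8%), where they held 68.9% of the repressed runs under 2000 bp, 84.8% of repressed bases and 34.5% of activated bases. Blocks 5 to 12, in the interior, held 13 islands (9.56%), against 7.83% of the short repressed runs, 2.76% of repressed bases and 32.4% of activated bases. Their share thus lay between those of repressed and activated bases in both zones, and nearest to that of the short repressed runs. Distances to the nearer chromosome end ranged from 0.291 to 385 Mb with a median of 69.5 Mb. No test was made of position. In vernalized leaf, islands of the outer blocks were 5.91% repressed and 21.5% activated by bases, and islands of the middle 14 blocks were 8.78% and 27.7%.

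**Figure D5:**
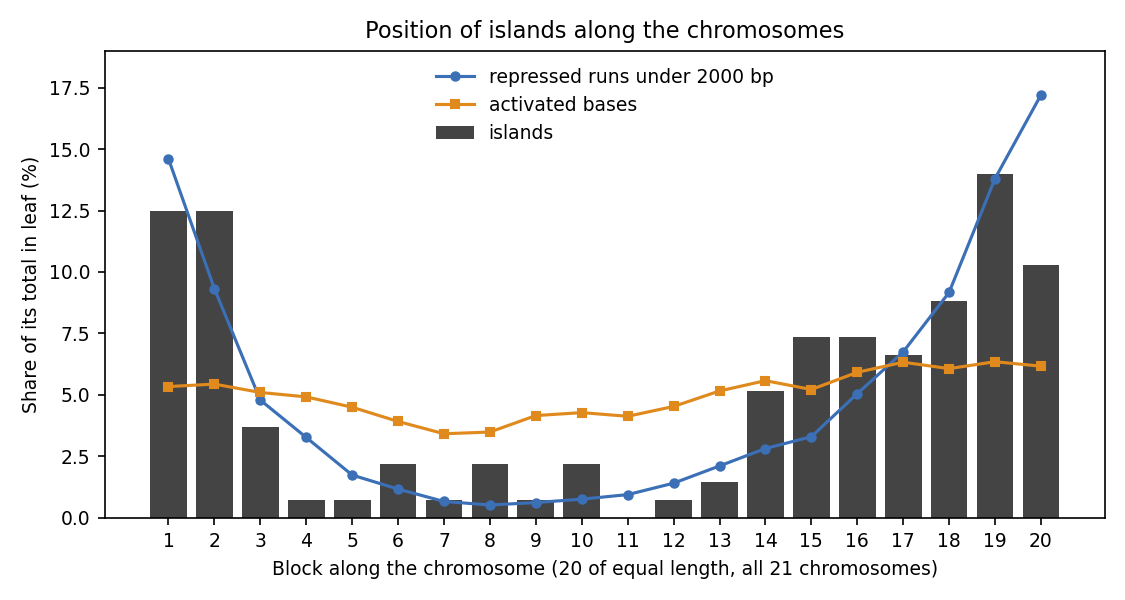
Share of islands (bars), of repressed runs under 2000 bp (circles) and of activated bases (squares) of leaf in each of 20 blocks of equal length along the chromosomes (x axis), over all 21 chromosomes, in percent of each total. The bars are high at both ends like the circles, with 61.8% of islands in the outer 3 blocks at each end. The squares vary less, from 3.42% in block 7 to 6.35% in block 19.

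The arrangement itself was rarer in vernalized leaf. The same rule gave 3 islands among 139593 repressed runs of vernalized leaf (0.00215%), against 136 in leaf, and none of the 3 overlapped an island of leaf. On either side alone, borders between E5 and any activated state numbered 490 of 279185 borders of E5 in vernalized leaf (0.176%), against 6083 of 320827 in leaf (1.90%). The islands at 2B:769894601-769894800 and 2D:543834001-543834200, both 200 bp between E2 segments, were repressed in leaf together with all of their flanks. In vernalized leaf, activated chromatin thus lay on both sides of a remaining bin of E5. The third, 600 bp at 6A:562947601-562948200 between 12800 and 1400 bp of activated chromatin, was mixed in leaf. Whether this scarcity lies in the chromatin or in how the states were called for each condition was not tested.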

How the data were processed

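The files hold chromatin state labels (E1 to E9) per segment, a categorical unit that the authors deposited as 1 segmentation each for vernalized leaf and leaf. Per the labels, reads were trimmed with fastp 0.21.0 and aligned with Bowtie2 2.3.5.1. The authors aligned to IWGSC RefSeq v1.0, called peaks and trained ChromHMM on them. How replicates were pooled for it is not given in the sources used here. Columns mapped to no condition numbered 0.

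Segments were expanded to bins of 200 bp and compared at the same position with Python 3.11.15, numpy 2.4.6 and scipy 1.17.1 (figures: matplotlib 3.10.9). The region rule, the classes, the tests and the lists were chosen with earlier results of these data known. Shares were tested over 7 chromosome groups (128 sign patterns) with at least 5 groups, adjusted within families of 9 and 12 comparisons, threshold 0.05. Intervals are exact Clopper-Pearson at 95%. Counting scripts were tested on simulated segmentations. Regions named by rule were, for each outcome, the island with the longest shorter flank with ties going to the longer island and then to chromosome order, and, for the wholly repressed, partly repressed and mostly activated outcomes, the longest island with both flanks of 600 bp or more (no wholly repressed island had such flanks, and the other picks were the same). Gene annotation and sequence of the build were not used here.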

Additional observations from a re-analysis of the deposited data

How the results depend on the processing

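No paired analysis was possible because the segmentations keep no values of single libraries. Depth is unknown for state labels, and 136 islands limit every share. By bases, 1.56% (200 bp of 1 island) stayed repressed, 35.9% became activated and 57.8% unmodified at the 14 islands with both flanks of 600 bp or more. The share that stayed repressed was 11.1% with repressed bins widened by 200 bp and 11.8% as islands with any repressed base, and the mixed share is 0 by construction where mixed counts as repressed. The number of islands was 81 from 400 bp up and 83 with E7, or E6 and E7, as unmodified.

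Against runs between unmodified chromatin, the difference in bases that stayed repressed was -6.94 percentage points under 1000 bp, -11.3 with E7 and also with E6 and E7 as unmodified, -17.6 with flanks of 600 bp or more, and -11.9 as runs with any repressed base, and did not pass the threshold in these. Against runs with activated chromatin on 1 side, the difference in bases that became activated was 10.7 under 1000 bp, 13.3 with E7 and 12 with E6 and E7 as unmodified, and 22.8 with flanks of 600 bp or more, and did not pass in these either. Flanks of 600 bp or more left 5 chromosome groups, too few for any adjusted p under 0.05, with differences of -42.5 (stayed repressed) and 29.6 (became activated) from runs beside mixed chromatin and 29.7 (became activated) from runs between unmodified chromatin. Without the first 240 Mb of 1B no call changed.

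Leaving out each chromosome group in turn leaves 6 groups and a smallest p of 0.0312, so most calls were lost with adjusted p of 0.0563 while the direction held. For bases that stayed repressed, the differences ran from -13.9 to -11.1 (unmodified neighbours), from -39.1 to -36.0 (mixed) and from -6.61 to -4.24 (activated on 1 side, which passed without group 4, exact permutation, adjusted p = 0.0469). For bases that became activated they ran from 20.8 to 24.6, from 20.5 to 24.4 and from 13.5 to 17.8. Islands against flanks ran from -39.8 to -31.1, and marked against accessible flanks, stayed repressed, from -8.72 to 4.90, which turned without group 1.

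Differences between sub-genomes, none of which passed, changed sign easily. A minus B in bases that stayed repressed was -1.41 with E7, and with E6 and E7, as unmodified, and ran from -4.30 to 4.40 with a group left out. A minus B in bases that became activated was -0.757 from 400 bp up, -15.1 with E7 and -8.70 with E6 and E7 as unmodified, and ran from -7.77 to 5.59. A minus D in bases that stayed repressed was -3.94 under 1000 bp and -3.87 under both changes of class, and ran from -5.37 to 3.37. A minus D in islands per activated Mb was -0.0477 under 1000 bp, -0.00677 with E7 and -0.00857 with E6 and E7 as unmodified, and ran from -0.0454 to 0.0583. A minus D in bases that became activated ran from -16.6 to 2.00. B minus D in bases that became activated was 2.90 with E7 as unmodified, in bases that stayed repressed ran from -4.14 to 1.58, and in islands per Mb from -0.000471 to 0.00206. With flanks of 600 bp or more, islands per Mb differed by 0.000459 (A minus B), 7.72e-05 (A minus D) and -0.000382 (B minus D), and per activated Mb by 0.0109 (A minus B). Sub-genome fate with such flanks was not computed, since fewer than 5 groups held islands of both sub-genomes.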

Other observations

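Along the chromosomes, E7 and E5 did not meet equally in both orders, a count made after the neighbours of the islands had been seen. In leaf the accessible state E7 lay directly before E5 (at lower coordinates) at 1867 borders and directly after it at 243, with more before than after on all 21 chromosomes. In vernalized leaf the counts were 28 before and 12 after. State E6 showed the reverse order in vernalized leaf, with 10 borders before E5 and 89 after it, and more after than before on 19 of 21 chromosomes, while leaf had a single contact of E6 and E5. State E2 had 195 borders before E5 and 143 after it in vernalized leaf, with more before on 14 chromosomes and more after on 6, and 1658 before and 1842 after in leaf, with more before on 5 and more after on 16. Among the islands, 41 had E7 on the side of lower coordinates and 21 on the other. Coordinates carry no strand, so no order is given by the direction of genes.

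Repressed runs of 2000 bp or more between activated runs numbered 25 in leaf and reached 10800 bp. In vernalized leaf the bases of the islands were 7.19% repressed, 24.3% activated, 65.9% unmodified and 2.69% mixed, beside 30.6%, 14.7%, 51.7% and 3.02% for these longer runs.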
